A study of Homo sapiens with 15 samples.

Results

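The mRNAs of 44 human translation initiation and elongation factors were followed in 15 RNA-seq libraries of Caco-2 cells, a colorectal adenocarcinoma line that grows as an enterocyte-like monolayer. The genes were taken by symbol from the 69215 genes of the count tables. They comprise 12 factors whose mRNAs are classed as 5′ TOP (EEF1A1, EEF1B2, EEF1D, EEF1G, EEF2, EIF3E, EIF3F, EIF3H, EIF3L, EIF4B, PABPC1 and TPT1) and 32 others. Monolayers had been exposed for 24 h to 0.05% polysorbate 20 (PS20, 5 libraries) or to 0.05% polysorbate 80 (PS80, 5 libraries), or had been left unexposed (control, 5 libraries). All groups are the same line, and the labels name no genetic change. PS20 and PS80 are food emulsifiers that share a polyoxyethylene sorbitan head and differ in the fatty acid esterified to it, laurate in PS20 and oleate in PS80.

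Translation begins when eIF2, loaded with GTP and the initiator tRNA, joins the small ribosomal subunit with eIF1, eIF1A, eIF5 and the large scaffold eIF3. The eIF4 proteins recruit this complex to capped mRNA, where eIF4E binds the cap, eIF4G bridges to eIF3 and to poly(A)-binding protein, and eIF4A unwinds the leader. The exchange factor eIF2B recharges eIF2 after each round, and phosphorylation of eIF2 by stress kinases inhibits it. In elongation, eEF1A delivers aminoacyl-tRNA, the eEF1B subunits recharge eEF1A, and eEF2 moves the ribosome along. Many of these proteins, like the ribosomal proteins, are made from 5′ TOP mRNAs, which start with a C followed by an unbroken run of pyrimidines. Translation of such mRNAs is controlled through mTORC1 and the RNA-binding protein LARP1, and the epithelium of the intestine is a tissue of high protein synthesis.

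The sequence that defines the 5′ TOP class lies at the transcription start. RefSeq starts (GRCh38.p14) were given for 34 of the 44 genes. The motif searched was a C at the start itself followed by at least 4 pyrimidines (C or T), on the transcribed strand and at that position only. It was present in 6 of the 7 5′ TOP genes with an entry, EEF1G being the exception, and in 6 of the 27 other genes with one (EIF2A, EIF2S3, EIF3D, EIF3K, EIF3M and EIF4A2). Among all 35116 annotated starts, 4.07% held it, and of all 27305 genes 5.14% had it at 1 or more starts. No entry was matched for EEF1D, PABPC1, PABPC4, EIF2S2, EIF3A, EIF3E, EIF3G, EIF3H, EIF3L and EIF4EBP1. The sequences below run 5′ to 3′ from 30 bases before to 20 bases from the start. Capitals mark the pyrimidine run that begins at the start, and an all lower case sequence has no such run. They show 6 genes of the 5′ TOP class, 3 genes outside it with the same kind of start, and 2 without, EIF1 and EIF2B5, whose mRNAs moved in opposite directions with PS20.
EEF1A1 (chr6:73521013-73521062, minus strand): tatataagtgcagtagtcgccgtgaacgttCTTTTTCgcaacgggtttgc
EEF2 (chr19:3985444-3985493, minus strand): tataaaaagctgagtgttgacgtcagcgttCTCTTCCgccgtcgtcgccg
TPT1 (chr13:45341164-45341213, minus strand): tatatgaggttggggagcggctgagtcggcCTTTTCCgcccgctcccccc
EEF1B2, second start (chr2:206159865-206159914, plus strand): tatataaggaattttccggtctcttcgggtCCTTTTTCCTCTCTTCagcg
EIF3F (chr11:7987307-7987356, plus strand): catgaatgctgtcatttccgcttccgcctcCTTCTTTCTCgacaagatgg
EIF4B (chr12:53006426-53006475, plus strand): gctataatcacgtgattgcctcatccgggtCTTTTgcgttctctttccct
EIF2S3 (chrX:24054926-24054975, plus strand): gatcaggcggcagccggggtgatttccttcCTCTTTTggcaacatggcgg
EIF3M (chr11:32583801-32583850, plus strand): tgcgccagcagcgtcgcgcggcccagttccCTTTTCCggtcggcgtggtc
EIF4A2 (chr3:186783547-186783596, plus strand): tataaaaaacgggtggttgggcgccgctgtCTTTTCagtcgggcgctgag
EIF1 (chr17:41688855-41688904, plus strand): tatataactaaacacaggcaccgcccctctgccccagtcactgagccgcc
EIF2B5 (chr3:184135328-184135377, plus strand): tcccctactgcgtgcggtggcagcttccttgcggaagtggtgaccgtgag

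Library totals lay between 6749086 and 17251564 counts with PS20, between 6769409 and 42271053 with PS80 and between 4183096 and 13616301 in control. Per the file headers, PS80 replicates 1, 3, 4 and 5 were counted with featureCounts 2.0.3 and the other 11 libraries with 2.0.0, and in those 4 libraries the counting version and PS80 cannot be told apart. Nothing in the labels says that replicates were separate cultures, so p-values measure the spread between these libraries, which may be technical. Epithelial and intestinal markers were at 1 CPM (counts scaled to library size) or more for 8 of 10 genes, with KRT20 and CDX1 under it. Their summed level was 8743 to 9428 CPM with PS20, 10745 to 11263 CPM with PS80 and 10354 to 12165 CPM in control. Fibroblast markers summed to 155 to 170 CPM with PS20, 160 to 209 CPM with PS80 and 192 to 206 CPM in control (COL1A2, DCN and THY1 under 1 CPM). Endothelial markers summed to at most 16.2 CPM in any library (1 of 5 at 1 CPM or more). The part of these differences in the results below was not tested.

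Of the 44 genes, 41 had enough counts to be tested. EEF1G had at most 1 count in a library, and 99.73% of its exonic sequence overlaps an exon of ENSG00000255508 on the same strand. EIF4A1 had 0 to 34 counts, and 47.43% of its exonic bases are shared with other genes. EEF1D had 1 to 14 counts, and 81 of its 94 distinct exon lengths recur in an annotated scaffold copy. The counting commands in the file headers hold no option to keep reads that overlap several genes or align to several places, so these 3 genes were not read as expression. Among the 41 tested genes the shared part was highest for EIF3L (51.84%), EIF2B2 (23.6%) and EIF4A2 (17.88%), and EEF1A1, TPT1 and PABPC1 have 49, 15 and 13 named pseudogenes, so their levels are uncertain. Per kilobase of annotated exon, the control levels were highest for EEF2 (716 ± 63.2 RPKM, SD, n = 5), EEF1A1 (605 ± 55.5 RPKM) and EEF1B2 (329 ± 13.5 RPKM). EIF4G2 followed at 200 ± 12.9 RPKM, EIF4EBP2 at 153 ± 9.42 RPKM and TPT1 at 147 ± 14.4 RPKM, and the last pair did not differ beyond their spread. The least abundant were EIF2B2 (4.34 ± 0.314 RPKM) and EIF2B3 (5.75 ± 0.562 RPKM). These lengths are those of all annotated exons together, which lowers the value of genes with long alternative exons such as EIF3E. All CPM values below are scaled to library size and compare a gene with itself.

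With PS20, the 5′ TOP factors rose as a group while the other factors split in both directions. Of the 10 tested 5′ TOP genes 9 were higher with PS20 than in control, EIF4B being the exception, and 0 were lower. Of the 31 other genes 9 were higher and 8 lower. The comparison called 48.2% of all 12769 genes tested, 24.3% higher and 23.9% lower, so the split among the other factors lies near the background and the count in the 5′ TOP class above it. The median log2 fold change was 0.32 over the 5′ TOP genes, 0.01 over the others and 0.01 over all genes. All 5 PS20 libraries lay above all 5 control libraries for 8 of the 10 5′ TOP genes and for 7 of the 31 others, against 16.2% of all genes. All lay below for 5 of the others and 0 of the 5′ TOP genes, against 16.3% of all genes. In RNA from whole cultures, a change in the RNA per cell and a change in the mix of cell states cannot be told apart.

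**Figure D1:**
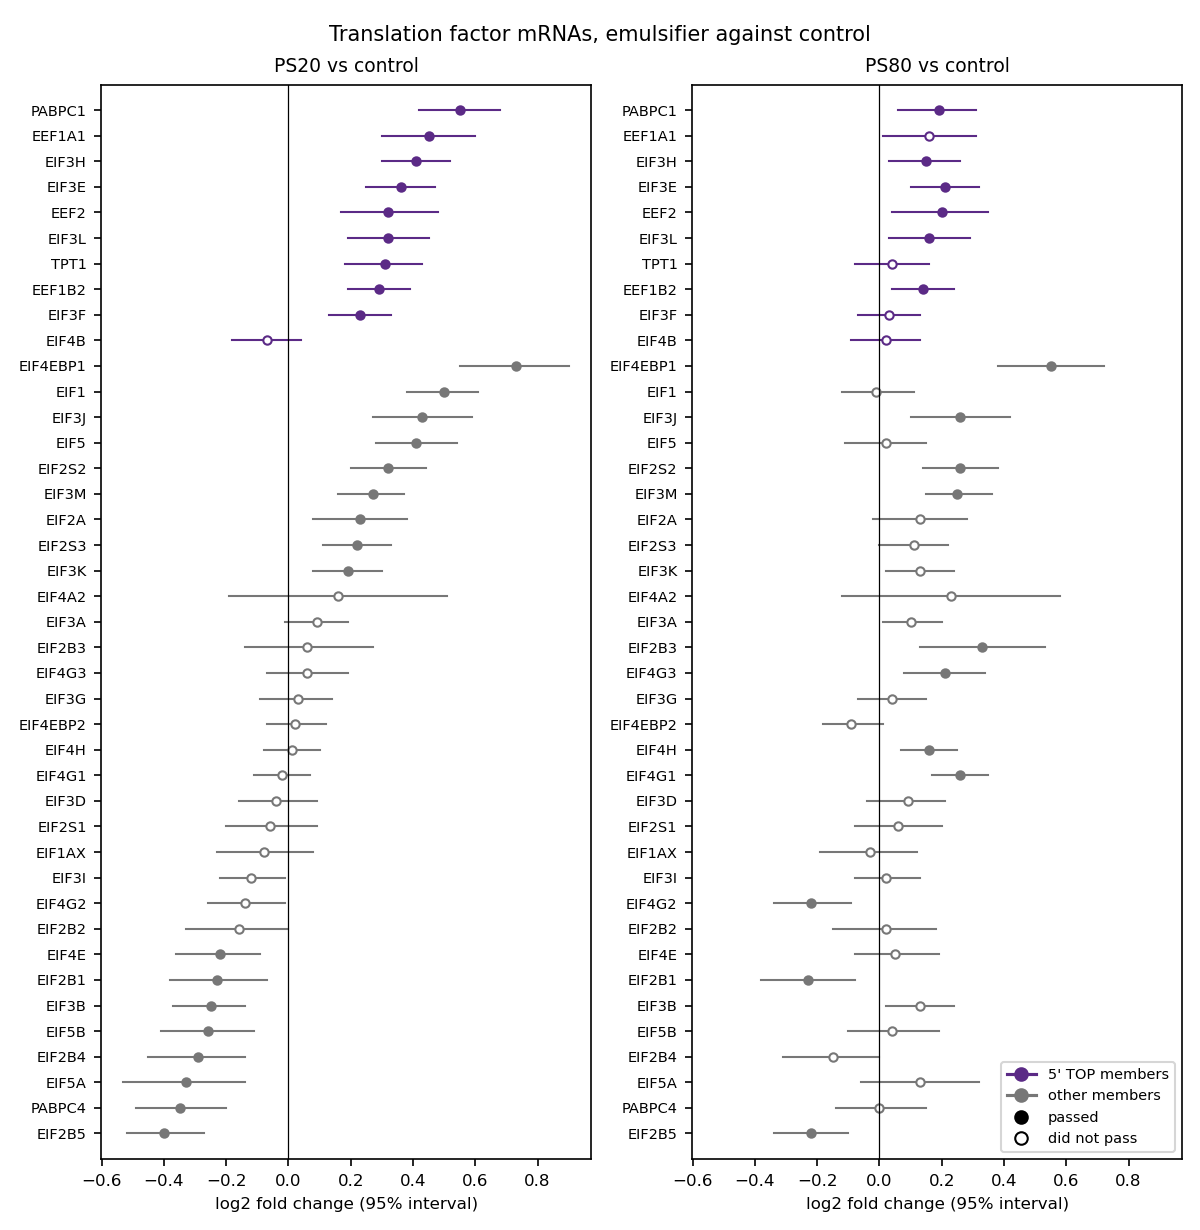
Log2 fold change (horizontal axis) with its 95% interval for the 41 tested factors in PS20 against control (left) and PS80 against control (right), 5′ TOP genes in purple above the other genes in grey, filled where the adjusted p was under 0.05. With PS20 the 5′ TOP genes other than EIF4B lie between 0.23 and 0.55, whereas the other genes run from -0.40 to 0.73.

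Library by library, the median 5′ TOP gene lay 0.27 to 0.45 above the control mean on the log2 scale in the PS20 libraries (mean 0.33 ± 0.08, SD, n = 5). It lay at 0.02 to 0.28 in the PS80 libraries (0.13 ± 0.09) and at -0.07 to 0.12 in the control libraries. The 5 PS20 libraries therefore did not overlap the control libraries, and the PS80 libraries did. The median of the other genes lay at -0.03 to 0.03 with PS20, -0.02 to 0.15 with PS80 and -0.05 to 0.05 in control, which all overlap. The 5′ TOP class made up 1.64% to 1.892% of all counts with PS20, 1.314% to 1.568% with PS80 and 1.225% to 1.481% in control.

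**Figure D2:**
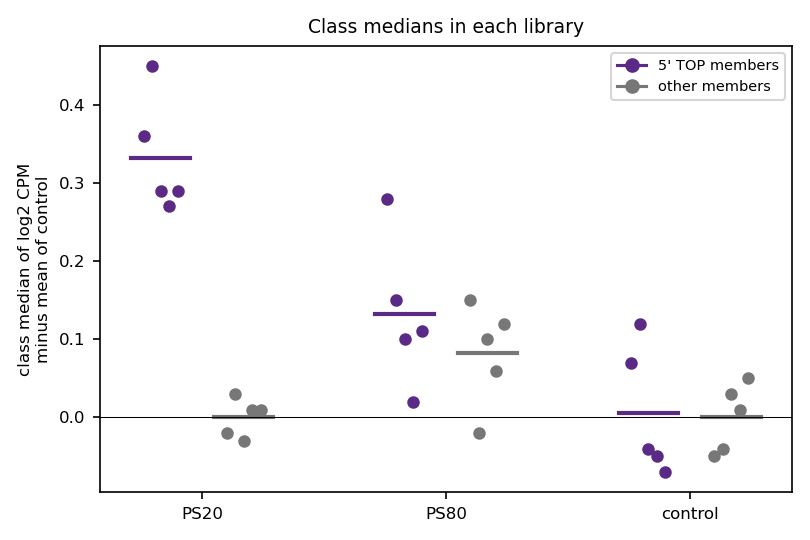
Median, over the 10 tested 5′ TOP genes (purple) and the 31 other tested genes (grey), of log2 CPM minus the control mean (vertical axis), 1 point a library, with horizontal lines at the group means. The 5 purple PS20 points, 0.27 to 0.45, lie above every purple control point, of which the highest is 0.12.

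With PS80, more factors rose than fell and most changes were small. Of the 10 tested 5′ TOP genes 6 were higher than in control and 0 lower, and of the 31 others 8 were higher and 3 lower. All genes were called at 33.2% in this comparison, 17.2% higher and 16% lower. The median log2 fold change was 0.15 over the 5′ TOP genes, 0.09 over the others and 0.00 over all genes. No 5′ TOP gene had all PS80 libraries above all control libraries, and 7 of the others did, against 10.3% of all genes. None of the 41 had all of them below, against 9.3%. Of the 6 5′ TOP calls, 5 lay between adjusted p = 0.0232 and 0.0468. Of the 6, 1 was left without control replicate 3, 4 or 5 or PS80 replicate 1, and 3 were left without control replicate 1 or PS80 replicate 2 or 5. Over all 41 genes, 9 rather than 14 were higher without control replicate 3, control replicate 5 or PS80 replicate 1. EIF3E kept its call in each fit that left out 1 library. With the replicate number as a block, 13 of the other factors rather than 8 were higher with PS80. The block also raised the calls among all genes, from 2199 higher and 2044 lower to 2668 and 2511. PS80 replicate 2 was the PS80 library counted with the same version as the controls. In it the median 5′ TOP gene lay 0.15 above the control mean on the log2 scale, and the median other gene at -0.02. The part of the counting version was not tested.

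In the direct comparison at the same dose and time, the 5′ TOP factors were lower with PS80 than with PS20. Of the 10, 7 were lower and 0 higher. Of the 31 others, 10 were higher and 2 lower, against 35.2% of all genes called, 18% higher and 17.2% lower. The medians were -0.18 over the 5′ TOP genes, 0.07 over the others and -0.00 over all genes. All PS80 libraries lay below all PS20 libraries for 4 of the 5′ TOP genes and 3 of the others, against 11% of all genes, and above them for 0 and 7, against 11.7%. Upper-quartile scaling turned the balance of calls among all genes from 2301 higher and 2200 lower to 1855 higher and 2691 lower. Among the 41 factors it gave 7 higher and 14 lower in place of 10 higher and 9 lower, and all 8 5′ TOP genes called under it were lower.

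**Figure D3:**
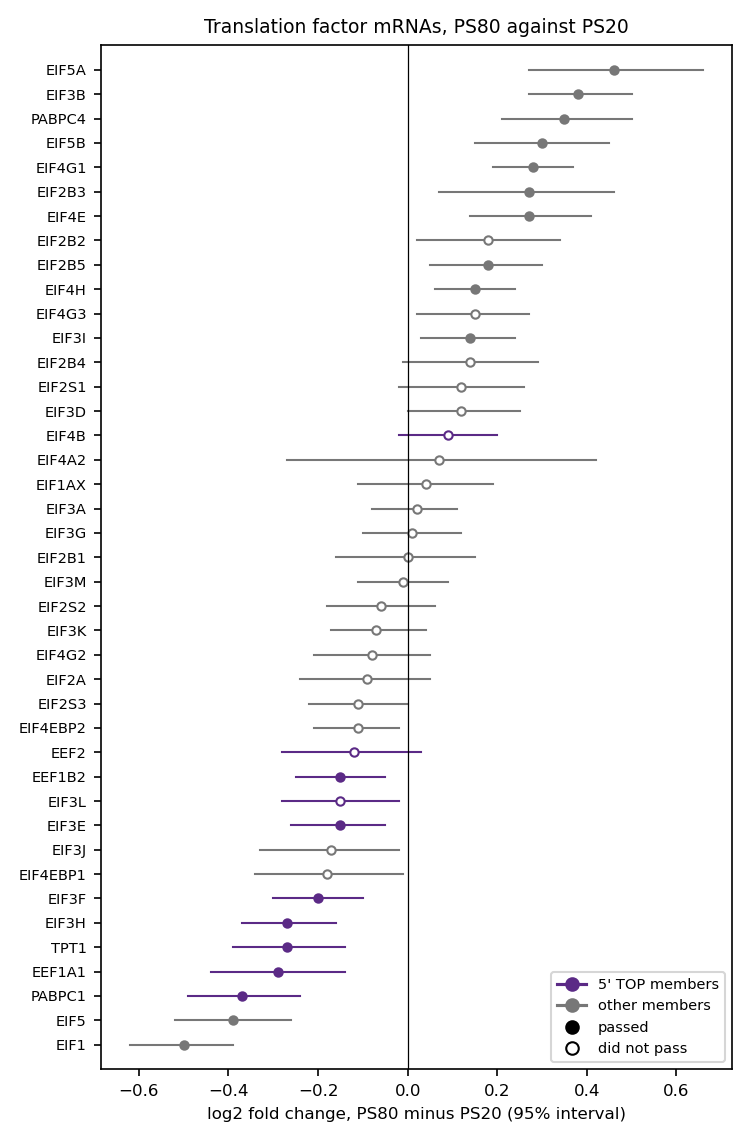
Log2 fold change of PS80 minus PS20 (horizontal axis) with its 95% interval for the 41 tested factors, ordered by value, 5′ TOP genes in purple and others in grey, filled where the adjusted p was under 0.05. Of the purple points EIF4B alone lies above 0, at 0.09, and the extremes are EIF5A at 0.46 and EIF1 at -0.50.

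Among the elongation factors, with TPT1 counted beside them, the 4 tested 5′ TOP genes were all higher with PS20. EIF5A, which is not of that class, was lower. EEF1A1 (ENSG00000156508.19), which delivers aminoacyl-tRNA to the ribosome, had 8694, 9238, 7951, 7672 and 8054 CPM in PS20 replicates 1 to 5, 7456, 7666, 6253, 5957 and 6749 CPM in PS80 replicates 1 to 5, and 6412, 6838, 5596, 6093 and 5509 CPM in control replicates 1 to 5. Every PS20 library lay above every PS80 and control library, and the PS80 libraries overlapped the controls. All adjusted p-values are Benjamini-Hochberg values from the quasi-likelihood test of edgeR. The log2 fold change of EEF1A1 was 0.45 ± 0.07 (SE) with PS20 (1.37-fold, adjusted p = 2.31e-05). With PS80 it was 0.16 ± 0.07 (adjusted p = 0.088), which passed with the replicate number as a block (0.00227) and without control replicate 2 or PS80 replicate 4 (0.0307 and 0.0275). Its direct difference of PS80 minus PS20 was -0.29 ± 0.07 (adjusted p = 0.00353).

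EEF2, the translocase, averaged 3599 ± 284 CPM with PS20, 3300 ± 387 CPM with PS80 and 2879 ± 254 CPM in control (SD, n = 5 each). It was 1.25-fold higher with PS20 (log2 fold change 0.32 ± 0.07, adjusted p = 0.00111) and 1.15-fold higher with PS80 (0.20 ± 0.07, adjusted p = 0.0443), a call lost without any of control replicates 1, 3, 4 and 5, PS20 replicate 5 or PS80 replicates 1 and 2 (adjusted p = 0.05 to 0.134). EEF1B2, an exchange factor for eEF1A, averaged 770 ± 39.1 CPM with PS20, 694 ± 44.4 CPM with PS80 and 630 ± 25.9 CPM in control. Both differences from control passed, by 0.29 ± 0.05 with PS20 (adjusted p = 3.98e-05) and by 0.14 ± 0.05 with PS80 (adjusted p = 0.0348), and the PS80 call was lost in 7 of the 15 fits that left out a library. TPT1, the translationally controlled tumour protein, which binds elongation factors and is not one itself, averaged 1306 ± 79.9 CPM with PS20, 1086 ± 59.8 CPM with PS80 and 1055 ± 104 CPM in control. It rose with PS20 (0.31 ± 0.06, adjusted p = 0.000147) and its interval with PS80 ran from -0.08 to 0.16.

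EIF5A, a small factor that relieves stalled ribosomes and carries the amino acid hypusine, differed in the other direction. Its libraries had 190, 213, 220, 217 and 233 CPM with PS20, 323, 263, 313, 294 and 292 CPM with PS80, and 199, 274, 296, 275 and 310 CPM in control. Control replicate 1 lay among the PS20 libraries and the other 4 controls above them, and all PS80 libraries lay above all PS20 libraries. The log2 fold change was -0.33 ± 0.09 with PS20 (adjusted p = 0.00617), 0.13 ± 0.09 with PS80 (adjusted p = 0.301) and 0.46 ± 0.09 for PS80 minus PS20 (adjusted p = 0.00079).

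The 2 cytoplasmic poly(A)-binding proteins, which coat the tail of mRNAs and hold it to eIF4G, moved in opposite directions with PS20. PABPC1, a 5′ TOP gene, had 1638, 1827, 1529, 1518 and 1484 CPM with PS20, 1396, 1251, 1198, 1170 and 1186 CPM with PS80, and 1182, 1176, 1060, 1015 and 1019 CPM in control. All PS20 libraries were above all others, and PS80 replicate 4 fell among the controls. The log2 fold change was 0.55 ± 0.06 with PS20 (1.47-fold, adjusted p = 1.02e-07), 0.19 ± 0.06 with PS80 (adjusted p = 0.0232) and -0.37 ± 0.06 for PS80 minus PS20 (adjusted p = 6.49e-05). The PS80 call was lost without control replicate 3, 4 or 5 or PS80 replicate 1 (adjusted p = 0.06 to 0.0866).

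PABPC4, the inducible paralog and not of the 5′ TOP class, had 92.0, 103, 99.3, 95.4 and 109 CPM with PS20, 119, 108, 145, 131 and 137 CPM with PS80, and 115, 123, 132, 128 and 136 CPM in control. Each PS20 library lay below each control library, and PS80 and control libraries overlapped. It fell by 0.35 on the log2 scale with PS20 (SE 0.07, adjusted p = 0.000284) and its value with PS80 was 0.00 (interval -0.14 to 0.15).

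**Figure D4:**
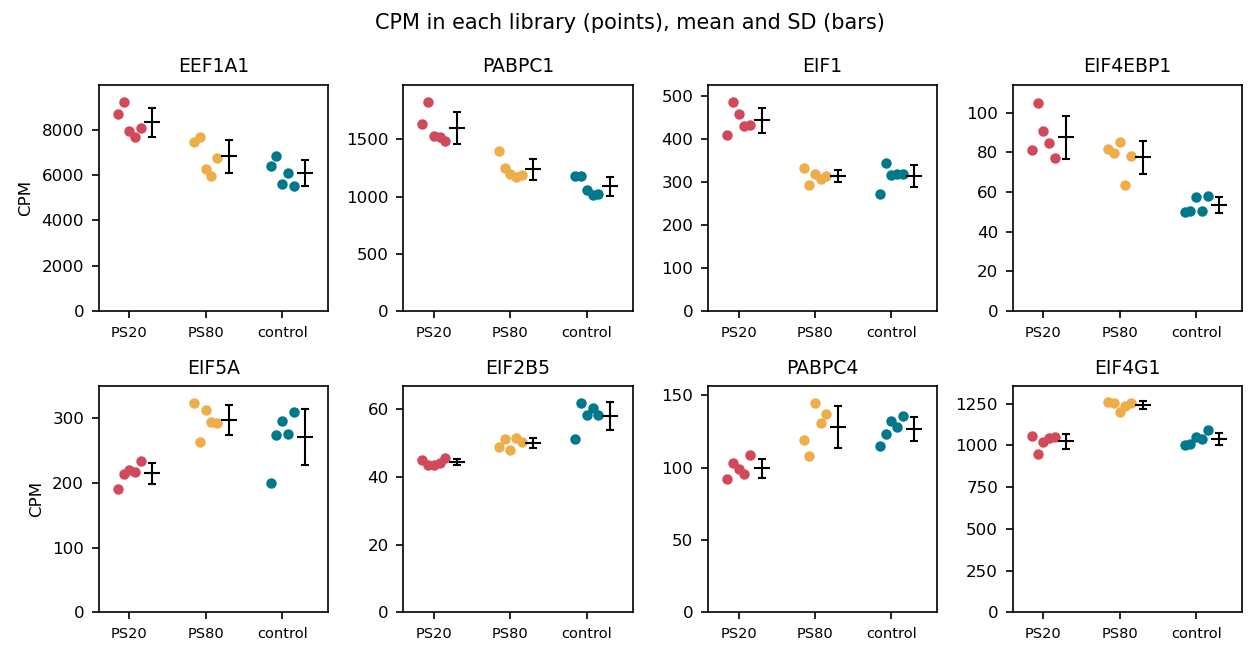
CPM (vertical axes, each from 0) of 8 factors in the 5 PS20, 5 PS80 and 5 control libraries (points, replicates 1 to 5 from left to right), with the mean and SD beside each group. EEF1A1, PABPC1 and EIF1 are highest with PS20, EIF4EBP1 is higher in every PS20 and PS80 library than in control, EIF5A, EIF2B5 and PABPC4 have their lowest means with PS20, and EIF4G1 is highest with PS80.

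Of the 8 genes for eIF2 and the choice of the start codon, 5 were higher and 1 lower with PS20, and 1 was higher with PS80, against 24.3% higher and 23.9% lower with PS20 and 17.2% higher with PS80 among all genes. The PS80 count is near or below that background. EIF1, the gatekeeper of start codon accuracy, had 409, 487, 459, 432 and 434 CPM with PS20, 332, 294, 319, 307 and 315 CPM with PS80, and 273, 344, 317, 319 and 318 CPM in control. The PS20 libraries stood above all 10 others, which overlapped among themselves. EIF1 rose 1.41-fold with PS20 (0.50 ± 0.06, adjusted p = 1.08e-07), with PS80 its interval ran from -0.12 to 0.11, and PS80 minus PS20 was -0.50 ± 0.06 (adjusted p = 2.21e-07). EIF5, which triggers GTP hydrolysis by eIF2 at the start codon, was likewise highest with PS20, with 508, 548, 542, 598 and 581 CPM with PS20, 377, 369, 441, 463 and 472 CPM with PS80, and 405, 407, 409, 434 and 435 CPM in control. No PS20 library overlapped any other, and the PS80 libraries lay on both sides of the controls. The difference was 0.41 ± 0.06 with PS20 (adjusted p = 8.61e-06), 0.02 ± 0.06 with PS80 (adjusted p = 0.833) and -0.39 ± 0.06 for PS80 minus PS20 (adjusted p = 3.43e-05).

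The 3 subunits of eIF2 itself differed. EIF2S2, the beta subunit, had 375, 385, 341, 367 and 365 CPM with PS20, 398, 323, 333, 329 and 372 CPM with PS80, and 265, 287, 311, 295 and 309 CPM in control. Every exposed library lay above every control. It was higher with both emulsifiers, by 0.32 ± 0.06 with PS20 (adjusted p = 7.28e-05) and by 0.26 ± 0.06 with PS80 (adjusted p = 0.00145).

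EIF2S3, the GTP-binding gamma subunit, had 444, 459, 383, 406 and 391 CPM with PS20, 403, 381, 385, 358 and 400 CPM with PS80, and 389, 340, 343, 358 and 356 CPM in control. PS20 replicate 3 fell below control replicate 1. It rose with PS20 (0.22 ± 0.05, adjusted p = 0.00157), and the PS80 value of 0.11 ± 0.05 did not pass. EIF2S1, the alpha subunit that stress kinases phosphorylate, had 104, 110, 110, 104 and 113 CPM with PS20, 123, 97.9, 119, 122 and 126 CPM with PS80, and 99.9, 108, 116, 111 and 129 CPM in control. These groups overlapped, and neither difference passed (intervals -0.20 to 0.09 with PS20 and -0.08 to 0.20 with PS80). EIF2A, an alternative initiation factor, was higher with PS20 (0.23 ± 0.07, adjusted p = 0.0124), and with PS80 its adjusted p was 0.165, against 0.0393 with the replicate block. EIF5B, which joins the ribosomal subunits, was lower with PS20 (-0.26 ± 0.07, adjusted p = 0.00521), and EIF1AX, which encodes eIF1A, passed in no comparison.

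The eIF2B subunits were the role in which no gene rose with PS20. Of the 5, 3 were lower with PS20, and with PS80 2 were lower and 1 was higher. Among all genes 23.9% were lower with PS20, and 16% were lower and 17.2% higher with PS80, and 5 genes are few to set beside these shares. EIF2B5, the catalytic epsilon subunit, had 44.9, 43.6, 43.5, 44.2 and 45.5 CPM with PS20, 48.7, 51.3, 48.1, 51.4 and 50.3 CPM with PS80, and 51.2, 61.9, 58.3, 60.5 and 58.2 CPM in control. The PS20 libraries lay below all others, and control replicate 1 lay among the PS80 libraries. It was lower with PS20 (-0.40 ± 0.06, adjusted p = 9.73e-06) and with PS80 (-0.22 ± 0.06, adjusted p = 0.00619), and higher with PS80 than with PS20 (0.18 ± 0.06, adjusted p = 0.0251), a difference that did not pass without PS20 replicate 3 (0.17, adjusted p = 0.0612).

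EIF2B4, the delta subunit, had 43.8, 46.0, 47.5, 47.7 and 50.1 CPM with PS20, 45.8, 50.3, 55.6, 52.4 and 55.4 CPM with PS80, and 47.4, 54.9, 59.0, 61.5 and 64.2 CPM in control. Control replicate 1 overlapped both exposed groups, and control replicate 2 overlapped PS80. It fell by 0.29 on the log2 scale with PS20 (SE 0.08, adjusted p = 0.00265). With PS80 its difference was -0.15 ± 0.07 (adjusted p = 0.117), which passed with the replicate block (adjusted p = 0.0329) and without control replicate 1 (-0.22, adjusted p = 0.0208).

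EIF2B1, the alpha subunit, had 47.3, 45.4, 53.1, 51.4 and 55.8 CPM with PS20, 45.8, 46.3, 54.1, 53.3 and 54.2 CPM with PS80, and 60.7, 54.0, 56.1, 59.7 and 66.1 CPM in control. Control replicate 2 overlapped both exposed groups. The difference was -0.23 with each emulsifier (SE 0.08 with PS20, adjusted p = 0.0158, and SE 0.07 with PS80, adjusted p = 0.0187), and the interval of PS80 minus PS20 ran from -0.16 to 0.15. Without control replicate 5 neither passed (adjusted p = 0.06 with PS20 and 0.0702 with PS80), and the PS80 call was also lost without PS80 replicate 1 or 2 (0.0555 and 0.0566).

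EIF2B3, the gamma subunit, was the exception, with 16.0, 20.1, 22.1, 20.1 and 24.9 CPM with PS20, 25.4, 23.6, 26.5, 23.9 and 26.0 CPM with PS80, and 19.1, 19.5, 17.7, 22.8 and 19.0 CPM in control. All PS80 libraries lay above all controls. The difference was 0.33 ± 0.10 with PS80 (adjusted p = 0.0104) and 0.06 ± 0.10 with PS20 (adjusted p = 0.623). EIF2B2, the beta subunit, passed in neither comparison with control.

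In eIF3, the scaffold of initiation, 7 of 12 subunits were higher and 1 lower with PS20, and 5 were higher with PS80, beside 24.3% higher and 23.9% lower with PS20 and 17.2% higher with PS80 among all genes. The 4 5′ TOP subunits EIF3E, EIF3F, EIF3H and EIF3L were all higher with PS20. Their log2 fold changes with PS20 were 0.36, 0.23, 0.41 and 0.32 (each SE 0.05 or 0.06, adjusted p at most 0.000417). EIF3E averaged 432 ± 17 CPM with PS20, 389 ± 28.1 CPM with PS80 and 336 ± 18.8 CPM in control, and EIF3H averaged 239 ± 13.1, 199 ± 12.5 and 180 ± 8.84 CPM in the same groups. EIF3L averaged 236 ± 14.0 CPM with PS20, 212 ± 19.3 CPM with PS80 and 189 ± 15.9 CPM in control, and EIF3F averaged 272 ± 16.2, 237 ± 6.49 and 232 ± 12.2 CPM. With PS80, EIF3E was higher by 0.21 ± 0.05 (adjusted p = 0.00354), EIF3H by 0.15 ± 0.05 (0.0384) and EIF3L by 0.16 ± 0.06 (0.0468), the EIF3H and EIF3L calls being lost in 6 and 10 of the 15 fits that left out a library. PS80 minus PS20 was negative for all 4, and passed for EIF3E (-0.15, adjusted p = 0.0231), EIF3F (-0.20, 0.00248) and EIF3H (-0.27, 0.000363). The EIF3E difference did not pass without PS20 replicate 2, PS80 replicate 2 or PS80 replicate 4.

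Of the 8 other eIF3 subunits, 3 were higher and 1 lower with PS20, beside 24.3% and 23.9% of all genes. EIF3J, a loosely bound subunit, had 158, 165, 163, 168 and 173 CPM with PS20, 143, 116, 159, 154 and 165 CPM with PS80, and 118, 108, 127, 126 and 134 CPM in control. The PS20 libraries were above every control, and PS80 replicate 2 lay within the control range. The difference was 0.43 ± 0.08 with PS20 (adjusted p = 7.05e-05) and 0.26 ± 0.08 with PS80 (adjusted p = 0.0111), and with PS80 replicate 2 as the only PS80 library it was -0.08 (adjusted p = 0.593). EIF3M rose with both, by 0.27 ± 0.05 with PS20 (adjusted p = 0.000103) and 0.25 ± 0.05 with PS80 (adjusted p = 0.000373), and the interval of PS80 minus PS20 ran from -0.11 to 0.09. EIF3K rose with PS20 (0.19 ± 0.05, adjusted p = 0.00409), and with PS80 its adjusted p was 0.0671, against 0.0396 with the replicate block and 0.0481 without control replicate 4.

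EIF3B, part of the core of eIF3, was the subunit that fell with PS20. It had 315, 309, 318, 341 and 339 CPM with PS20, 409, 381, 452, 439 and 438 CPM with PS80, and 364, 357, 414, 396 and 405 CPM in control. The PS20 libraries lay below all 10 others, and the PS80 libraries overlapped the controls. The log2 fold change was -0.25 ± 0.05 with PS20 (adjusted p = 0.000407), 0.13 ± 0.05 with PS80 (adjusted p = 0.0668, but 0.0101 with the replicate block and 0.0181 without PS80 replicate 2) and 0.38 ± 0.05 for PS80 minus PS20 (adjusted p = 5.77e-06). EIF3A, EIF3D, EIF3G and EIF3I passed in neither comparison with control, with values between -0.12 and 0.10, though EIF3A with PS80 (adjusted p = 0.0931) passed with the replicate block (0.0317) and without PS80 replicate 2 (0.0463), and EIF3I with PS20 (0.0661) without control replicate 1 or 3 (0.025 and 0.0391). The EIF3I difference with PS20 also passed with the replicate block (adjusted p = 0.0444).

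In the cap-binding group, 1 of 9 tested genes was higher and 1 lower with PS20, and 4 were higher and 1 lower with PS80. The PS20 counts lie below the 24.3% and 23.9% of all genes, and with PS80 17.2% of all genes were higher and 16% lower. EIF4EBP1 encodes 4E-BP1, which holds eIF4E away from eIF4G until mTORC1 phosphorylates it. It had 81.2, 105, 90.7, 84.6 and 77.0 CPM with PS20, 81.8, 79.6, 85.0, 63.5 and 78.0 CPM with PS80, and 50, 50.5, 57.5, 50.3 and 57.8 CPM in control. All exposed libraries lay above all controls. It had the largest difference from control of the 41 factors with both emulsifiers, 0.73 ± 0.08 with PS20 (1.65-fold, adjusted p = 1.61e-07) and 0.55 ± 0.08 with PS80 (1.46-fold, adjusted p = 2.56e-05), and PS80 minus PS20 was -0.18 ± 0.08 (adjusted p = 0.089). Its paralog EIF4EBP2 had 1131, 1169, 1193, 1149 and 1202 CPM with PS20, 1089, 1104, 1040, 1121 and 1049 CPM with PS80, and 1161, 1267, 1095, 1121 and 1102 CPM in control. Neither of its differences from control passed (intervals -0.07 to 0.12 with PS20 and -0.18 to 0.01 with PS80). EIF4E, the target of both, was lower with PS20 (-0.22 ± 0.07, adjusted p = 0.00778), with a value of 0.05 ± 0.07 with PS80.

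The 3 eIF4G genes differed with PS80. EIF4G1, the main scaffold, had 1058, 950, 1022, 1042 and 1053 CPM with PS20, 1257, 1255, 1203, 1235 and 1253 CPM with PS80, and 1000, 1007, 1048, 1038 and 1093 CPM in control. The PS80 libraries lay above all others. It was 1.2-fold higher with PS80 than in control (0.26 ± 0.04, adjusted p = 8.06e-05), higher with PS80 than with PS20 (0.28 ± 0.04, adjusted p = 2.9e-05), and its interval with PS20 ran from -0.11 to 0.07.

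EIF4G2, a relative that lacks the eIF4E-binding part, had 1420, 1564, 1546, 1576 and 1610 CPM with PS20, 1316, 1273, 1535, 1587 and 1587 CPM with PS80, and 1552, 1606, 1795, 1774 and 1755 CPM in control. PS80 replicates 1 and 2 were lowest, and PS80 replicates 4 and 5 overlapped control replicate 1. It was lower with PS80 (-0.22 ± 0.06, adjusted p = 0.00833), and the PS20 value of -0.14 ± 0.06 (adjusted p = 0.0708) passed without control replicate 1, control replicate 2 or PS80 replicate 2 (adjusted p = 0.0252, 0.0492 and 0.04). With the replicate block the PS20 difference also passed (adjusted p = 0.00789).

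EIF4G3 had 161, 139, 130, 140 and 124 CPM with PS20, 163, 152, 145, 160 and 145 CPM with PS80, and 141, 123, 136, 132 and 133 CPM in control. All PS80 libraries exceeded all controls, and it was higher with PS80 (0.21 ± 0.06, adjusted p = 0.0118). EIF4H, a helper of the helicase, was also higher with PS80 (0.16 ± 0.04, adjusted p = 0.00528), with a PS20 interval from -0.08 to 0.10. EIF4A2, a helicase paralog, had 307, 278, 257, 235 and 208 CPM with PS20, 358, 306, 252, 220 and 213 CPM with PS80, and 278, 254, 213, 221 and 187 CPM in control. The groups overlapped, replicates 1 and 2 being the highest in each, and neither comparison passed (0.16 ± 0.16 and 0.23 ± 0.16). With the replicate block both differences passed (adjusted p = 0.00653 with PS20 and 0.000545 with PS80). EIF4B, which stimulates eIF4A and belongs to the 5′ TOP class, averaged 487 ± 27.6 CPM with PS20, 517 ± 30.4 CPM with PS80 and 511 ± 33.3 CPM in control, and passed in no comparison.

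The 5′ TOP class also varied within the groups. Replicates 1 and 2 had higher levels than replicates 3 to 5 for 9 of the 10 tested 5′ TOP genes with PS20, 8 with PS80 and 10 in control, with median log2 differences of 0.12, 0.14 and 0.17. For the 31 other genes the medians were 0.00, -0.01 and -0.07. The labels give no batch, and what these replicate numbers share was not tested. In the PS20 group the 5′ TOP median minus the other median was 0.38 and 0.43 in replicates 1 and 2 and 0.31, 0.26 and 0.28 in replicates 3 to 5. In control it was 0.12 and 0.16 in replicates 1 and 2 and -0.08, -0.07 and -0.12 in replicates 3 to 5. The lowest PS20 value, 0.26, thus lay above the highest control value, 0.16.

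Genes could also be set side by side by the start sequence rather than by the class. With PS20, 5 of the 6 5′ TOP genes with the pyrimidine-rich start shown above were higher and 0 lower (median 0.30). Of the 6 genes outside the class with such a start, 4 were higher and 0 lower (median 0.21). Of the 20 outside it with an entry and no such start, 3 were higher and 7 lower (median -0.10). Among all tested genes with an entry, 31.2% of the 711 with such a start were higher and 20.8% lower (median 0.07), against 23.5% and 25.4% of the 9192 without it (median -0.00). Without the ribosomal protein genes, 27.6% of 666 genes with the start were higher and 22.2% lower (median 0.05). With PS80 the 3 sets of factors had 2, 1 and 5 genes higher and 0, 0 and 3 lower, with medians of 0.09, 0.13 and 0.03. Of all tested genes with the start 21% were higher and 14.1% lower with PS80, and of those without it 17% and 16.8%, so the counts of 1 of 6 and 5 of 20 are near these shares. A match is a run of letters at an annotated start, and the start used in these cells was not measured.

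**Figure D5:**
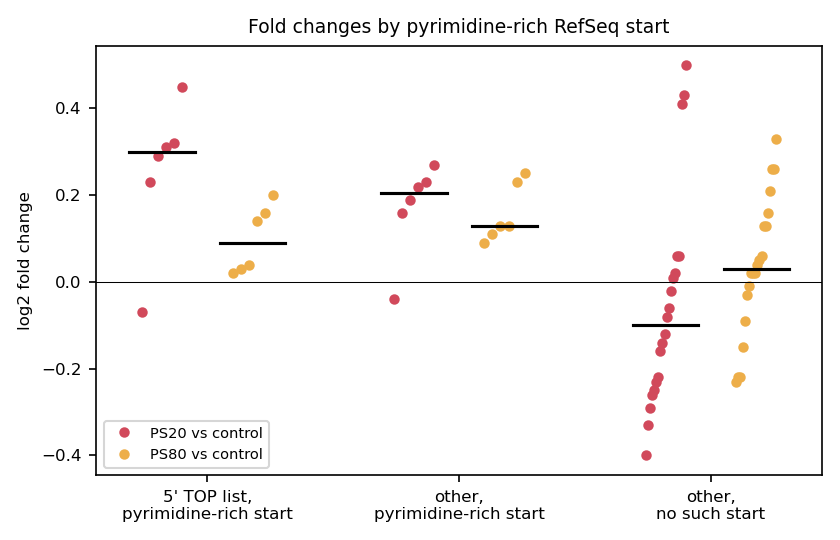
Log2 fold change against control (vertical axis) of the tested factors with a RefSeq start entry, in PS20 (red) and PS80 (orange), for 5′ TOP genes with a pyrimidine-rich start, other genes with one, and other genes without one, 1 point a gene, with black lines at the medians. With PS20 the medians are 0.30, 0.21 and -0.10, and the third set holds both EIF1 at 0.50 and EIF2B5 at -0.40.

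Regulators and neighbours of these factors were counted as lists, beside 24.3% higher and 23.9% lower among all genes with PS20 and 17.2% and 16% with PS80. Of 13 genes for eIF2 kinases, phosphatase subunits and their control, 2 were higher and 3 lower with PS20, and 1 was higher and 0 lower with PS80, at or below these shares. GCN1, which activates the kinase GCN2 on stalled ribosomes, averaged 259 ± 15.4 CPM with PS20, 353 ± 24 CPM with PS80 and 316 ± 9.18 CPM in control, lower with PS20 (-0.29, adjusted p = 6.55e-05) and higher with PS80 (0.16, adjusted p = 0.0174). PPP1R15A (GADD34) and PPP1R15B (CReP), which direct the phosphatase to eIF2, were higher with PS20 by 0.24 and 0.18 (adjusted p = 0.0122 and 0.0202), and EIF2AK4, which encodes GCN2, was lower (-0.16, adjusted p = 0.0195). Of 24 tested genes of mTORC1 and its outputs to translation, 5 were higher and 10 lower with PS20, and 4 were higher and 7 lower with PS80. The counts of higher genes are near or below the shares of all genes, and those of lower genes above them. DDIT4 (REDD1), an inhibitor of mTORC1, averaged 54.4 ± 12.8 CPM with PS20, 20.2 ± 2.96 CPM with PS80 and 14.5 ± 3.45 CPM in control, higher by 1.94 with PS20 (adjusted p = 1.61e-07) and by 0.52 with PS80 (adjusted p = 0.0359). SESN2, which holds mTORC1 back when leucine is low, was higher with PS20 by 0.99 (adjusted p = 4.39e-08), and MKNK2, a kinase of eIF4E, by 0.68 with PS20 (2.35e-08) and 0.42 with PS80 (7.00e-05). DEPTOR, an mTOR-binding inhibitor, was lower with both (-0.87 with PS20 and -0.88 with PS80, adjusted p = 4.95e-06 and 8.94e-06).

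Of 18 tested further elongation factors and their modifying enzymes, 9 were higher and 2 lower with PS20, and 5 were higher and 0 lower with PS80, against 24.3% and 23.9% of all genes with PS20 and 17.2% and 16% with PS80. EEF1A2, the paralog of EEF1A1 typical of muscle and neurons, averaged 18.3 ± 2.69 CPM with PS20, 15.5 ± 3.36 CPM with PS80 and 5.84 ± 0.421 CPM in control, higher by 1.67 and 1.42 (adjusted p = 1.65e-09 and 1.28e-07). EEF2K, the kinase that inhibits eEF2, was higher by 0.45 with PS20 and 0.74 with PS80 (adjusted p = 0.00249 and 4.56e-05), EEF2KMT, a methyltransferase of eEF2, by 0.32 and 0.47 (0.00857 and 4.47e-04), and EEF1AKMT3, a methyltransferase of eEF1A, by 0.62 with PS20 (0.00367). Of 16 tested further genes for initiation factors and other proteins of translation, 6 were higher and 2 lower with PS20. With PS80, 3 were higher and 4 lower, the higher count being near the 17.2% of all genes. Among them EIF4E3, a cap-binding relative of eIF4E, was higher by 1.09 and 0.66 (adjusted p = 3.10e-06 and 0.002) at a mean of 7.6 ± 1.07 CPM with PS20, 5.53 ± 0.595 CPM with PS80 and 3.57 ± 0.601 CPM in control. CNBP, an RNA-binding protein known to promote translation of 5′ TOP mRNAs, was higher by 0.26 and 0.35 (4.64e-05 and 4.37e-06). PAIP1, a partner of poly(A)-binding protein, was higher with PS20 by 0.49 (5.32e-06), and DHX29, a helicase for structured leaders, was lower (-0.52 and -0.43, 6.22e-06 and 1.54e-04).

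Of 6 termination genes, 3 were higher and 1 lower with PS20, and none passed with PS80, against 24.3% higher and 23.9% lower among all genes with PS20. GSPT1, which encodes the release factor eRF3a, was lower with PS20 (-0.17, adjusted p = 0.00516), while its paralog GSPT2 was higher (0.50, 0.00214), as were N6AMT1 and TRMT112, the 2 subunits of the methyltransferase of the release factor eRF1 (0.54 and 0.19, adjusted p = 3.08e-04 and 0.0119). Of 11 tested mitochondrial translation factors, 5 were higher and 3 lower with PS20, and 2 were higher and 1 lower with PS80, which is near or below the 17.2% and 16% of all genes with PS80. LRPPRC, which stabilises mitochondrial mRNAs, was higher by 0.20 with PS20 and 0.32 with PS80 (adjusted p = 0.00126 and 2.08e-05). GFM2, a ribosome recycling factor, was lower with both (-0.30 and -0.20, 0.00101 and 0.0267). MTIF3, an initiation factor, was lower with PS20 (-0.34, 0.00178), and MTFMT, which formylates the initiator tRNA, was higher with PS80 (0.37, 0.00192). The median log2 fold changes of the 6 lists lay between -0.10 and 0.22 with PS20 and between -0.06 and 0.16 with PS80, beside 0.01 and 0.00 over all genes.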

How the data were processed

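Per the labels' protocols, total RNA came from a column kit and libraries from its polyadenylated fraction. Trimming with cutadapt, alignment with STAR 2.7.9a against GRCh38, counting with featureCounts and testing with DESeq2 1.32.0 are named in the submitters' processing notes. The deposited tables hold whole-number read counts per gene for each library, without normalization. Per the file headers, counting used GENCODE 42, reads of mapping quality 10 or more, and neither strand nor pair options, so a gene and an antisense partner are not separated. Of 69215 genes, 62625 (90.48%) were paired with a symbol through the gene table supplied. Other IDs held up to 0.00174% of the counts.

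Counts were analysed with edgeR 4.0.16 and limma 3.58.1 in R 4.3.3, and Python 3.11.15. Filtering by filterByExpr (minimum count 10, minimum total 15) left 12769 genes. CPM were scaled by trimmed mean of M-values factors (0.978 to 1.02), and log2 CPM used a prior count of 2. Groups were compared by the robust quasi-likelihood test in 1 fit over all 15 libraries, with Benjamini-Hochberg adjustment over all genes, a threshold of 0.05 and 95% intervals. The common biological coefficient of variation was 8.91%. Alternatives were other scalings, DESeq2 1.42.0, no filter, only the groups compared, a replicate block, and subsets of libraries. PS80 replicate 2 as the only PS80 library was added after seeing the data.

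The genes, their classes and the pathway lists were chosen with earlier results of these data known. Genes named with library values are the 4 highest and 4 lowest fold changes against control, the 3 highest and 3 lowest between emulsifiers, and the paralog and subunit sets, with the 5′ TOP genes by mean. In the pathway lists, up to 4 genes with the smallest p that passed are named. Replicate numbers are shared between groups. The replicate block treats them as possible pairs in every comparison. Deviations of same-numbered libraries from their group means correlated at 0.102 to 0.304 for PS80 and control. There, replicates 1 and 5 correlated better with another number (0.171 against 0.139, and 0.215 against 0.124). A further list of cell type markers is not reported here.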

Additional observations from a re-analysis of the deposited data

Results flagged for a closer look

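In 9 of the 123 combinations of factor and group, 1 of the 5 libraries lay apart from the others by more than 0.71 of the group's range (Dixon's critical value at the 95% level). Chance flags about 1 in 20 groups. PS80 replicate 2, the deepest library, was the lowest of its group for EIF2S1 (97.9 CPM, the next 119), EIF4E (52.9 CPM, the next 61.4) and EIF5B (211 CPM, the next 242). TPT1 was highest in PS20 replicate 2 (1445 CPM, the next 1292). EIF2B2 was highest in PS80 replicate 1 (26.4 CPM, the next 23.7). EIF3F was highest in PS80 replicate 3 (248 CPM, the next 237) and, among controls, in replicate 2 (253 CPM, the next 231). Control replicate 1 was the lowest control for EIF3G (82.8 CPM, the next 97.1) and the highest for EIF5B (257 CPM, the next 231).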

How the results depend on the processing

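The number of 5′ TOP genes higher with PS20 was 9 in each fit that left out 1 library, and the median of the class lay between 0.28 and 0.37. Over the 41 genes and 25 alternatives, a value was counted as kept if it stayed on its side of the threshold. Where either value passed, it also had to keep its direction. The PS20 comparison kept 999 of 1025 values, the PS80 comparison 928 and PS80 minus PS20 933. EIF3J reversed in 1 alternative, to -0.08 with PS80 replicate 2 as the only PS80 library. Over the 3 comparisons, 57 values changed sign where neither value passed, and these are among those counted as kept.

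Against control with PS20, the median of the other factors moved to 0.06 under upper-quartile factors. With replicates 1 and 2 alone, 2 factors were lower (2 of them outside the class), and of all genes 1643 were higher and 1654 lower. Against control with PS80, the higher 5′ TOP genes numbered 2 with library totals alone, 2 with only the groups compared and 0 with replicates 1 and 2 alone. In that subset 5 factors were higher and 1 lower (5 and 1 outside the class), and 1191 and 1022 of all genes. With library totals alone, the calls among all genes moved from 2199 higher and 2044 lower to 1927 and 2369. Leaving out 1 library gave 1 to 7 higher 5′ TOP genes and 9 to 15 higher factors. With PS80 replicate 2 alone, 4 factors were higher (2 of the class and 2 others), the median of the others was -0.00, and 1251 of all genes were lower.

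For PS80 minus PS20, 14 factors were lower under upper-quartile factors (6 outside the class), and 5 outside the class with library totals alone. With replicates 1 and 2 alone, 3 were higher and 5 lower (3 higher outside the class, 3 lower in it), and 885 and 727 of all genes. With PS80 replicate 2 alone, 1 was higher, which lay outside the class, 3 of the class and 4 others were lower, and 1348 and 1027 of all genes. The cause of these moves was not tested, and the subsets also hold fewer libraries.

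With the replicate block, 13 factors outside the class were higher with PS80 than in control. The block changed no other call of that comparison among the factors beyond those given for single genes. Among all genes there, it moved the calls from 2199 higher and 2044 lower to 2668 and 2511. Same-numbered PS20 and control libraries correlated at -0.0264 to 0.248 and PS80 and PS20 libraries at 0.0741 to 0.29. Between PS20 and control, replicate 4 alone correlated better with another number (0.0369 against -0.0264). Between PS80 and PS20, replicates 2 and 4 did (0.146 against 0.0974, and 0.148 against 0.0741). Outside the block fit the numbers were taken as pairs in no comparison, and what they share was not tested. For PS80 minus PS20 the block gave 15 lower factors, 6 of them outside the class. Among all genes in that comparison, the block gave 2775 higher and 2676 lower in place of 2301 and 2200. It also added EIF2B4, EIF3D and EIF4G3 as higher there (adjusted p = 0.0418, 0.0169 and 0.0123). Against control with PS20 the block added EIF3I, EIF4A2 and EIF4G2 (adjusted p = 0.0444, 0.00653 and 0.00789). Among all genes in the PS20 comparison, it moved the calls from 3099 higher and 3051 lower to 3490 and 3376. Where a lone PS80 library was used, it was assumed to vary like the other groups.

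In the fit over all 15 libraries without a block, the smallest difference that passed among the 41 factors was 0.14 on the log2 scale. Smaller ones did not pass in that fit at this depth and spread, and some larger ones did not either. EIF4A2 with PS80, at 0.23, had an adjusted p of 0.302. With the replicate block EIF3I passed at -0.11 with PS20 (adjusted p = 0.0444).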
